A study of Mus musculus with 27 samples.

Results

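Fhit, Wwox, Immp2l, Macrod2, Rad51b, Magi2, Exoc4, Dpyd and Sgcz are 9 protein-coding genes whose human counterparts are very long, most of them at or near common fragile sites. They were taken by symbol, and all 9 were found among the 37332 genes of the deposited count table and the 53379 genes of the deposited TPM table. The list was drawn up with fraction values of these libraries known, so the levels of the 9 genes in chromatin, nucleoplasm and cytoplasm are given below as a description, without a test. Their levels between cell types are tested. RNA longer than 200 nt, depleted of ribosomal RNA, was sequenced as 100 bp read pairs from stranded libraries. The cells were mESC, the E14 line of mouse embryonic stem cells grown with the cytokine LIF, mNPC, a neural progenitor line made in the submitters' laboratory and grown with EGF and FGF, and mCtx, primary cortical neurons cultured for 5 days. The labels name no genetic change and no treatment beyond the media. Each cell type was split into chromatin-associated RNA, soluble nucleoplasmic RNA and cytoplasmic RNA in 3 biological replicates, which made 27 libraries in 9 groups.

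Common fragile sites are chromosome regions that form gaps and breaks on metaphase chromosomes when DNA replication is slowed. Many of them lie over very large transcribed genes, and FHIT and WWOX at the human sites FRA3B and FRA16D are the best known examples. In such a gene nearly all of the transcribed length is intron, so an RNA polymerase needs hours to cross it, and RNA still being made is held on the chromatin at the gene. A count of reads over the whole gene span therefore adds unspliced and spliced RNA together, while TPM, a length-scaled abundance, refers to the annotated, spliced transcripts.

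By the deposited table, whose build is mm10, 8 of the 9 genes spanned from 724.9 to 1997.7 kb. Macrod2 (chr2:140395309-142392966, plus strand) was the longest of the 9 and ranked 7 among all genes of the table. Fhit (chr14:9550092-11162035, minus strand, 1611.9 kb) ranked 10. Magi2 (chr5:19227046-20704798, plus strand) spanned 1477.8 kb, Sgcz (chr8:37522298-38661508, minus strand) 1139.2 kb, Immp2l (chr12:41024090-41955588, plus strand) 931.5 kb and Wwox (chr8:114439655-115352708, plus strand) 913.1 kb. Dpyd (chr3:118562129-119432918, plus strand) spanned 870.8 kb and Exoc4 (chr6:33249085-33973979, plus strand) 724.9 kb. Rad51b (chr12:79297351-79508656, plus strand) was the exception: the deposited table gave it 211.3 kb, rank 889, while GENCODE vM21 gives it 517.4 kb, so its counts left out the distal part of the gene. The spliced product was a very small part of each span. The transcript with the longest coding sequence in GENCODE vM21 made up 0.0679% of the Fhit span (1094 bp), 0.105% of the Immp2l span (977 bp) and, at most, 0.665% of the Exoc4 span (4824 bp). Single introns reached 707.7 kb in Sgcz, 639.4 kb in Wwox, 551.3 kb in Fhit and 517.8 kb in Immp2l. All 9 genes passed the filter on low counts.

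The sequences just upstream of 3 genes with clear cell type patterns below are shown, Immp2l and Rad51b highest in stem cells and Magi2 highest in neurons. They are the 250 bases before an annotated start, from RefSeq (GRCm38.p6), 5′ to 3′ on the gene's strand, with each CG dinucleotide in capitals. RefSeq promoters were matched for 7 of the 9 genes, that is, not for Wwox and Sgcz. Macrod2 was among these 7 and is not shown. It changed more between mESC and mCtx chromatin (6.11 log2 units) than Immp2l (-3.32) and Rad51b (-4.44).
Immp2l, chr12:41023840-41024089, plus strand: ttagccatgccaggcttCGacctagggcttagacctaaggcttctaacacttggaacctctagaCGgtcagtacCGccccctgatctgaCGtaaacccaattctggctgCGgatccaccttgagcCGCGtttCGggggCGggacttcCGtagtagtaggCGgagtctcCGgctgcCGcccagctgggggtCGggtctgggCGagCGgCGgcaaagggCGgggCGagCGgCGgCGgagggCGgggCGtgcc
Rad51b, chr12:79297032-79297281, plus strand: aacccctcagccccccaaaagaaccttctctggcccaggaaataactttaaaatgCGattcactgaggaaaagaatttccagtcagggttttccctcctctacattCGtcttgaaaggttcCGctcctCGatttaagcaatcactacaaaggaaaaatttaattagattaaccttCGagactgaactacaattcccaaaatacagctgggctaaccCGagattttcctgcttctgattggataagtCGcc
Magi2, chr5:19226796-19227045, plus strand: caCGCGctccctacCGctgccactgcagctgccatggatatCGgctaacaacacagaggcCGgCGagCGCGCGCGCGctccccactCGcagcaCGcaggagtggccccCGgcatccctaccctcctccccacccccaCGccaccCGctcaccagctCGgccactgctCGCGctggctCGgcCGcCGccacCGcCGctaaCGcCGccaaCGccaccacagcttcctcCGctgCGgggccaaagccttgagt
CG reads the same on both strands, so 1 search covers both. The Immp2l sequence held 24 CG dinucleotides at 66.0% GC, the Magi2 sequence 29 at 72% GC and the Rad51b sequence 7 at 42.8% GC. Of all 32851 promoters in the table, cut to the same 250 bases, 92.1% held at least 1 CG, 46.3% at least 7, 12% at least 24 and 6.78% at least 29. The median was 6, with quartiles of 2 and 16. RefSeq gives Magi2 another start, whose 250 upstream bases (chr5:19907268-19907517) held 3 CG at 41.2% GC, and Rad51b another whose upstream bases (chr12:79297101-79297350) held 9 at 44.8% GC. These counts describe the letters of these windows only.

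Total counts per library ran from 11249862 to 19871198. CPM below are counts scaled to a common library size by the trimmed-mean method. Stem cell markers (Pou5f1, Nanog, Zfp42, Esrrb and Dppa5a) summed to between 693 and 3761 CPM in the mESC libraries and to at most 3.51 CPM in mNPC and mCtx, where Pou5f1, Zfp42 and Dppa5a were at 0 in every fraction. Progenitor markers were highest in mNPC (4816 to 5441 CPM in cytoplasm), and neuron markers in mCtx (4430 to 4949 CPM in cytoplasm). The mNPC libraries also held astrocyte markers (763 to 1018 CPM in cytoplasm, 3489 to 4462 in nucleoplasm) and oligodendrocyte lineage markers (668 to 717 in cytoplasm, 1188 to 1240 in nucleoplasm). Neuron markers in mNPC summed to 612 to 762 CPM in cytoplasm and to 1759 to 2076 in chromatin, beside 3728 to 4286 in mCtx chromatin. The mCtx libraries held 670 to 820 CPM of progenitor and 262 to 284 of astrocyte markers in cytoplasm. Microglia, endothelium and fibroblast markers summed to at most 41.6, 2.57 and 14.3 CPM in the neural cells and to at most 76, 375 and 35.7 CPM in mESC. The part of such other cells in the cell type differences was not tested. Fewer cells of a type and less RNA per cell cannot be told apart in such bulk samples. In mESC the libraries numbered 1 stood apart from numbers 2 and 3: a chi-square statistic per gene between replicates was 49.3 to 72 for pairs with number 1 and 13.3 to 14.9 for pairs without it. No pair of replicates agreed within sampling noise, the lowest value being 3.12. The comparisons with mESC were therefore also made without the libraries numbered 1, an alternative chosen after the data were seen.

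The 9 genes together were a small part of each library and a much larger part of chromatin than of cytoplasm. In mESC their summed counts were 0.634% ± 0.0632 (SD, n = 3) of the chromatin libraries, 0.0402% ± 0.00935 of nucleoplasm and 0.0245% ± 0.00288 of cytoplasm. In mNPC the sums were 0.346% ± 0.00817 of chromatin, 0.0299% ± 0.00102 of nucleoplasm and 0.0359% ± 0.00593 of cytoplasm. In mCtx they were 0.954% ± 0.0693 of chromatin, 0.438% ± 0.0481 of nucleoplasm and 0.0494% ± 0.00134 of cytoplasm. Chromatin lay above both other fractions in every library of every cell type. Nucleoplasm lay far above cytoplasm in the neurons, less far in the stem cells (0.0302% to 0.0487% against 0.0228% to 0.0278%), and overlapped it in the progenitors (0.0288% to 0.0307% against 0.0291% to 0.0398%). Mitochondrial ribosomal RNA differed between these groups, at 26% to 28% of mESC, 3.2% to 8.6% of mNPC and 0.6% to 0.751% of mCtx nucleoplasm and under 1% of every cytoplasm library. With it left out of the totals, nucleoplasm held 0.0419% to 0.0674% in stem cells, 0.0297% to 0.0336% in progenitors and 0.407% to 0.496% in neurons, which kept that order.

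**Figure D1:**
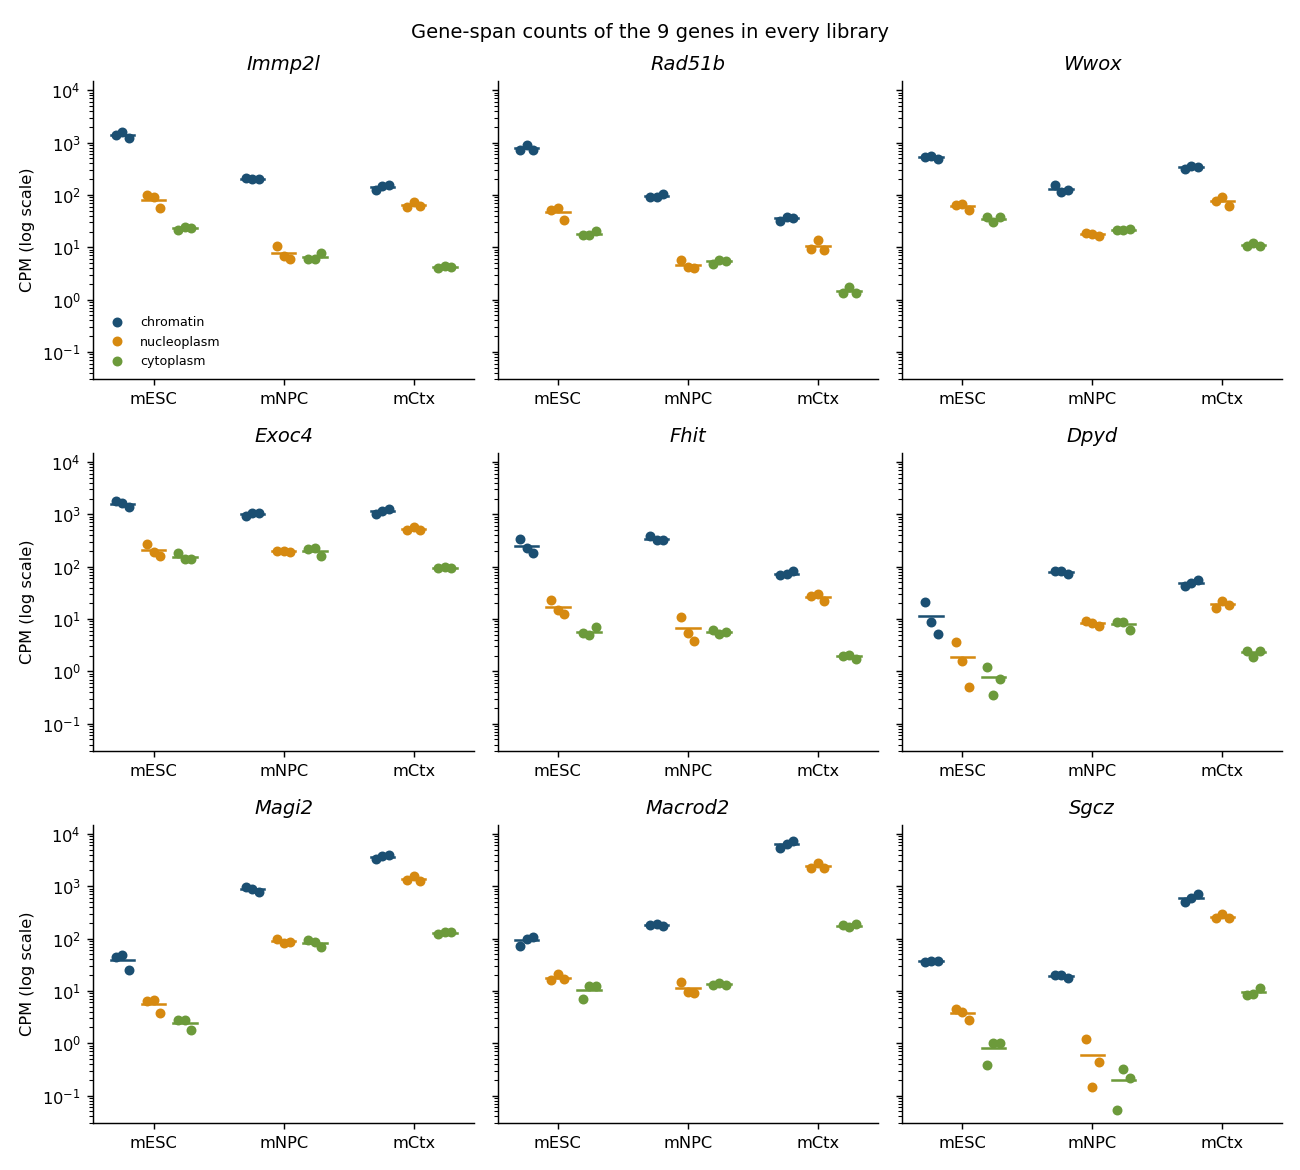
CPM on a log scale (y axis) of each of the 9 genes in the 27 libraries, grouped by cell type (x axis) and coloured by fraction; points are libraries and bars are means of 3. Chromatin is highest for every gene in every cell type, Macrod2, Magi2 and Sgcz are highest in mCtx, and in mNPC nucleoplasm and cytoplasm lie close together.

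The genes were then ordered by chromatin level per length, as CPM per kb of deposited span. For Rad51b this covers only 211.3 kb of the 517.4 kb that GENCODE vM21 gives it, so its place is not strictly comparable with the others. In mESC chromatin Rad51b led at 3.67 ± 0.449 CPM per kb (mean ± SD, n = 3), followed by Exoc4 at 2.22 ± 0.295, Immp2l at 1.5 ± 0.179, Wwox at 0.579 ± 0.0439 and Fhit at 0.158 ± 0.0509. Macrod2 (0.0461), Sgcz (0.0321), Magi2 (0.0266) and Dpyd (0.0134) closed the order, and the libraries of Sgcz and Magi2, and those of Magi2 and Dpyd, overlapped. In mNPC chromatin Exoc4 led at 1.41 ± 0.0981 CPM per kb, then Magi2 at 0.591 and Rad51b at 0.449. Immp2l (0.219) and Fhit (0.213) overlapped there, as did Dpyd (0.0919) and Macrod2 (0.0895), with Wwox (0.145) between these pairs and Sgcz last at 0.0171. In mCtx chromatin the order was Macrod2 at 3.18 ± 0.432 CPM per kb, Magi2 at 2.5 ± 0.225, Exoc4 at 1.58 ± 0.154, Sgcz at 0.517 and Wwox at 0.373. Rad51b (0.169) and Immp2l (0.151) overlapped, and so did the last pair, Dpyd (0.056) and Fhit (0.046). Exoc4 was thus among the leading 3 in each cell type, while Macrod2 went from the sixth place in mESC to the top in mCtx.

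Cell types were compared within chromatin and within cytoplasm. In chromatin, mNPC against mESC, 3 of the 9 genes were higher (Magi2, Dpyd and Macrod2), 5 were lower (Rad51b, Immp2l, Wwox, Sgcz and Exoc4) and Fhit was not called. Over all 18249 genes tested, 33.8% were called higher and 42.7% lower in this comparison, so calls as such were common. In chromatin, mCtx against mNPC, 4 were higher (Macrod2, Sgcz, Magi2 and Wwox) and 3 lower (Fhit, Rad51b and Immp2l), beside 30.2% and 39.2% of all genes. In chromatin, mCtx against mESC, 4 were higher (Magi2, Macrod2, Sgcz and Dpyd) and 5 lower, beside 33.0% and 47.4% of all genes. The largest of these were Magi2 (6.55 ± 0.24 log2 units, 93.8-fold, adjusted p = 1.94e-18), Macrod2 (6.11 ± 0.23, adjusted p = 3.34e-18), Rad51b (-4.44 ± 0.19, adjusted p = 2.03e-17) and Sgcz (4.01 ± 0.21, adjusted p = 3.61e-15). Dpyd had 2.05 ± 0.35, Fhit -1.78 ± 0.24, Wwox -0.63 ± 0.14 and Exoc4 -0.49 ± 0.16 (adjusted p from 1.91e-07 to 0.00861), and Exoc4 was no longer called with median-ratio size factors (-0.32, adjusted p = 0.075). The counts of called members were near these shares, and the median log2 fold changes of the 9 genes, -0.65, 0.16 and -0.49 in the order given, hid changes that ran from -4.44 to 6.55. The other protein-coding genes of 500 kb or more, 188 in number, had medians of 0.83, 3.26 and 5.33 over the same comparisons, and the difference from the 9 was not tested.

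In cytoplasm, mNPC against mESC, 3 members were higher (Magi2, Dpyd and Exoc4) and 4 lower (Sgcz, Immp2l, Rad51b and Wwox), beside 36.5% and 39.4% of all genes. In cytoplasm, mCtx against mNPC, 3 were higher (Sgcz, Macrod2 and Magi2) and the other 6 lower, beside 32.6% and 33.4%. In cytoplasm, mCtx against mESC, 4 were higher (Magi2, Macrod2, Sgcz and Dpyd) and the other 5 lower, beside 40.1% and 41.6%. The 9 genes had medians of -0.02, -0.96 and -0.71 in these comparisons, and all genes tested had -0.07, 0 and -0.05. Scaling by total counts in place of the trimmed mean shifted the median of all genes by -0.6 for mCtx against mNPC and by -0.79 for mCtx against mESC in chromatin, and the share of higher genes among the calls went from 43.5% to 27.6% and from 41.0% to 25.3%. TPM shifted all genes too: on the log2(TPM + 1) scale the median over 25206 genes was -0.64 for mNPC against mESC chromatin, 0.99 for mCtx against mNPC chromatin and 0.34 for mCtx against mESC chromatin. Rescaling the TPM by median ratios brought these to -0.14, 0.44 and 0.33, so rescaled values are given beside most TPM fold changes below.

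**Figure D2:**
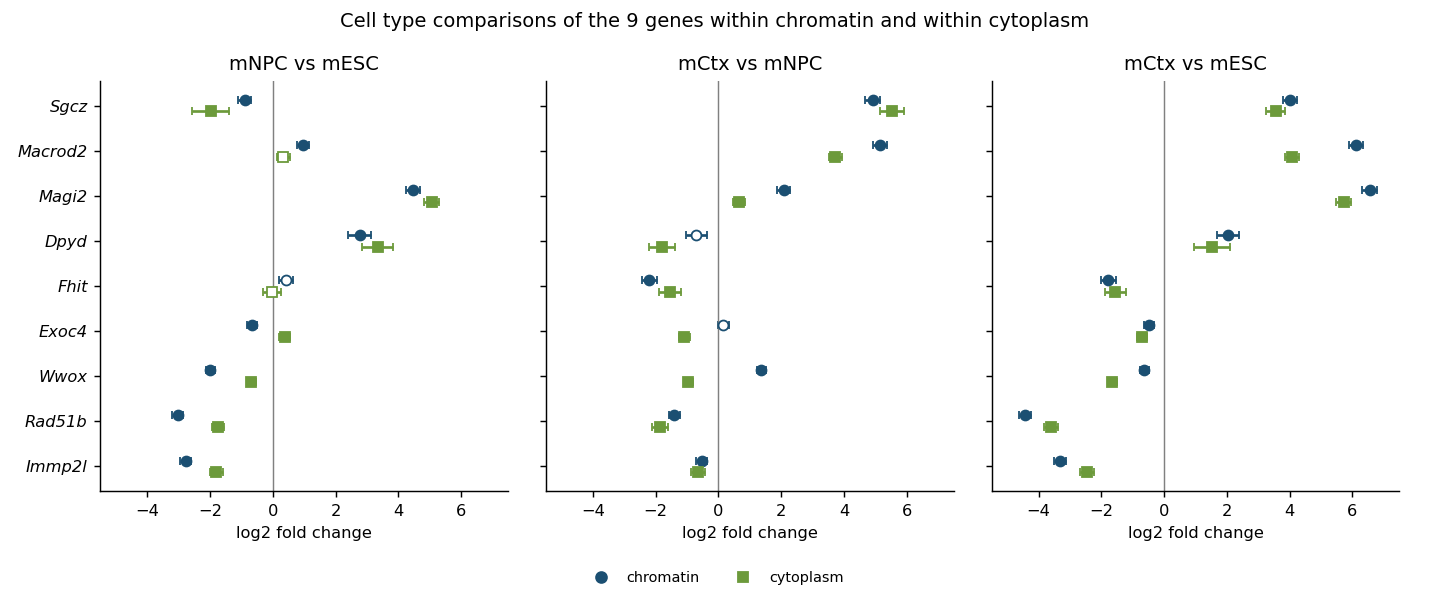
Log2 fold change (x axis) of each gene between cell types, within chromatin (circles) and within cytoplasm (squares), with bars of 1 standard error; filled symbols have an adjusted p under 0.05. Immp2l and Rad51b lie left of 0 throughout (for mCtx against mNPC chromatin, Immp2l is at 0.25 by TPM, under the all-gene 0.99, and at -0.35 by rescaled TPM), Magi2 right of 0, and Wwox lies on opposite sides of 0 in chromatin (1.36) and cytoplasm (-0.96) for mCtx against mNPC.

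Immp2l encodes a subunit of the inner mitochondrial membrane peptidase, which trims proteins sorted to the intermembrane space. In mESC chromatin it stood at 1404, 1563 and 1230 CPM in the 3 libraries, in mNPC at 209, 199 and 204, and in mCtx at 122, 146 and 153. The 3 groups did not overlap, and stem cells were far above the neural cells. The drop from mESC was 2.78 ± 0.18 log2 units (SE; 6.85-fold, adjusted p = 3.79e-13) in mNPC and 3.32 ± 0.19 (9.97-fold, adjusted p = 1.08e-14) in mCtx. In cytoplasm the libraries held 21.6, 24.2 and 22.9 CPM in mESC, 6.04, 6.09 and 7.7 in progenitors and 3.94, 4.36 and 4.15 in neurons, so by counts the order was the same at a far lower level. By TPM the cytoplasmic drop from mESC to mNPC was not called (-0.65, adjusted p = 0.0856, and -0.05 rescaled), nor that from mNPC to mCtx (-0.71, adjusted p = 0.0761, and -0.72 rescaled). The difference between mCtx and mNPC in chromatin, -0.54 ± 0.17 (adjusted p = 0.00716), was no longer called with median-ratio size factors (-0.28, adjusted p = 0.167) and by TPM was 0.25 (adjusted p = 0.465), below the 0.99 of all genes, and -0.35 once rescaled (adjusted p = 0.342). Chromatin was 61-fold above cytoplasm in mESC, 31-fold in mNPC and 33.7-fold in mCtx by counts.

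Rad51b, a recombinase paralog that acts in DNA repair by homologous recombination, followed the same order. Its 3 chromatin libraries held 737, 884 and 707 CPM in mESC, 89.5, 89.5 and 106 in progenitors and 32.1, 38.7 and 36.4 in neurons. No group overlapped another. It was 8.18-fold lower in mNPC than in mESC (log2 fold change -3.03 ± 0.17, adjusted p = 1.84e-14) and 2.65-fold lower in mCtx than in mNPC (-1.41 ± 0.17, adjusted p = 3.5e-08). In cytoplasm it fell by 1.74 ± 0.19 and by 1.87 ± 0.25 log2 units over the same steps (adjusted p = 4.57e-09 and 1.77e-07), from 18.1 ± 1.98 to 5.39 ± 0.473 and 1.46 ± 0.237 CPM. Chromatin was 43-fold above cytoplasm in mESC, 17.6-fold in mNPC and 24.2-fold in mCtx. By TPM the step from progenitors to neurons in chromatin was -0.32 and not called (adjusted p = 0.0662), and -0.80 rescaled. The step from mESC to mNPC in cytoplasm was -0.84 by TPM (adjusted p = 9.54e-05) but -0.3 rescaled, which was not called (adjusted p = 0.187).

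Wwox encodes a WW domain oxidoreductase and is a tumour suppressor. Its chromatin libraries held 535, 565 and 485 CPM in mESC, 158, 115 and 125 in progenitors and 318, 360 and 344 in neurons, so it was lowest in progenitors and the groups did not overlap. It was 3.98-fold lower in mNPC than in mESC (log2 fold change -1.99 ± 0.14, adjusted p = 1.44e-12) and then 2.57-fold higher in mCtx than in mNPC (1.36 ± 0.14, adjusted p = 2e-09). Cytoplasm went another way: 38, 30 and 37.4 CPM in mESC, 21.7, 21.5 and 22.2 in progenitors and 10.8, 12.3 and 10.4 in neurons. Each step down was called by counts, by 0.69 ± 0.14 log2 units in mNPC (adjusted p = 9.68e-05) and by a further 0.96 ± 0.15 in mCtx (adjusted p = 2.89e-06). In cytoplasm the step from mESC to mNPC was -0.59 by TPM (adjusted p = 0.0013) but 0.05 once rescaled, which was not called. By TPM the step from mNPC to mCtx was 1.72 in chromatin and -0.70 in cytoplasm, and 1.02 and -0.68 rescaled. The difference between the fractions in this step was not tested. Chromatin was 15-fold above cytoplasm in mESC, 6.1-fold in mNPC and 30.5-fold in mCtx.

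Exoc4 encodes a subunit of the exocyst, the complex that tethers secretory vesicles to the plasma membrane. It was the most even of the 9 across cell types, with 1784, 1673 and 1371 CPM in mESC chromatin, 946, 1084 and 1042 in progenitors and 1028, 1160 and 1250 in neurons. The mNPC and mCtx libraries overlapped, and mESC lay above both. It was 1.57-fold lower in mNPC than in mESC (log2 fold change -0.65 ± 0.16, adjusted p = 0.000895). The difference between mCtx and mNPC was 0.16 ± 0.16 (adjusted p = 0.391), which became a call in either direction with the scaling: -0.45 with total counts (adjusted p = 0.0186), and 0.42 with median-ratio size factors (adjusted p = 0.0251). By TPM it was 0.99 (adjusted p = 0.000104), equal to the median of all genes, and 0.13 once rescaled, which was not called. In cytoplasm mCtx (94.7, 97.8 and 94 CPM) lay below mESC (186, 143 and 139) and mNPC (217, 231 and 160). The fold change of mCtx against mNPC there was -1.09 ± 0.17 (adjusted p = 2.45e-06). The call of mNPC over mESC in cytoplasm (0.38 ± 0.17, adjusted p = 0.0405) was lost without mESC library 2 (adjusted p = 0.134) or 3 (0.144), or without mNPC library 1 (0.111) or 2 (0.169). Exoc4 had the lowest chromatin excess over cytoplasm of the 9 in mNPC (5.05-fold) and mCtx (12-fold), and 10.3-fold in mESC.

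Fhit encodes a dinucleoside triphosphate hydrolase of the histidine triad family, lost in many human tumours. Its mESC chromatin libraries held 345, 231 and 186 CPM, the mNPC libraries 383, 320 and 327 and the mCtx libraries 68.4, 72.8 and 81.2. The mESC and mNPC libraries overlapped, and mCtx lay below both. The difference between mNPC and mESC was 0.43 ± 0.23 (adjusted p = 0.0869). By TPM it was -0.21, above the -0.64 of all genes, and 0.41 once rescaled (adjusted p = 0.0386). Without the mESC libraries numbered 1 it was 0.70 (adjusted p = 0.000662), and it also passed without the mESC chromatin library 1 alone (0.72, adjusted p = 0.00713). In mCtx Fhit was 4.63-fold lower than in mNPC in chromatin (log2 fold change -2.21 ± 0.24, adjusted p = 7.42e-09) and 2.91-fold lower in cytoplasm (-1.54 ± 0.34, adjusted p = 0.000226). Cytoplasm held 5.76 ± 1.06 CPM in mESC, 5.7 ± 0.49 in mNPC and 1.94 ± 0.192 in mCtx. Chromatin was thus 44.1-fold, 60.2-fold and 37.9-fold above cytoplasm.

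Dpyd encodes dihydropyrimidine dehydrogenase, the first enzyme of uracil and thymine breakdown. It was the lowest of the 9 in mESC chromatin, with 21.2, 8.72 and 5.15 CPM, and stood at 84.6, 82.4 and 73 in progenitors and 42, 49 and 55.4 in neurons. The mESC libraries lay below all others and differed among themselves. Dpyd was 6.81-fold higher in mNPC than in mESC (log2 fold change 2.77 ± 0.36, adjusted p = 1.21e-07), and 3.51 log2 units higher without the libraries numbered 1 (adjusted p = 3.94e-15). The difference between mCtx and mNPC in chromatin, -0.71 ± 0.33, did not pass (adjusted p = 0.0584), although the libraries did not overlap. With total counts it was -1.32 (adjusted p = 0.000865). By TPM it was 0.26 (adjusted p = 0.0507), below the 0.99 of all genes, and -0.33 once rescaled (adjusted p = 0.0123). In cytoplasm the libraries held 1.24, 0.357 and 0.727 CPM in mESC, 8.94, 8.84 and 6.12 in progenitors and 2.5, 1.91 and 2.5 in neurons. The step from mNPC to mCtx was called there (-1.8 ± 0.43, adjusted p = 0.000637). The excess of mCtx over mESC in cytoplasm, 1.53 ± 0.58 (adjusted p = 0.017), was lost without mESC library 2 (1.21, adjusted p = 0.0762) and was 2.08 without the libraries numbered 1 (adjusted p = 7.37e-05). By TPM, at means of only 0.113 in mCtx and 0.07 in mESC, it was 0.06 and not called (adjusted p = 0.817). Rescaled TPM gave 0.12 (adjusted p = 0.453).

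Magi2 encodes a membrane-associated guanylate kinase that scaffolds receptors and adhesion proteins at synapses and cell junctions. Its chromatin level was 44.6, 48.2 and 25.1 CPM in the mESC libraries, 976, 875 and 771 in progenitors and 3341, 3731 and 4002 in neurons. Each cell type lay wholly above the one before. It was 22.2-fold higher in mNPC than in mESC (log2 fold change 4.47 ± 0.22, adjusted p = 1.15e-15) and 4.22-fold higher in mCtx than in mNPC (2.08 ± 0.2, adjusted p = 7.09e-10). In cytoplasm the first step was 33.3-fold (5.06 ± 0.25, adjusted p = 7.32e-16), and the second 1.58-fold (0.66 ± 0.19, adjusted p = 0.00433). Those levels were 2.45 ± 0.551, 82.2 ± 12.7 and 130 ± 5.67 CPM. Chromatin was 15.9-fold above cytoplasm in mESC, 10.6-fold in mNPC and 28.4-fold in mCtx.

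Macrod2 encodes a macrodomain hydrolase that removes mono-ADP-ribose from proteins. Its chromatin libraries held 72.4, 97.5 and 107 CPM in mESC, 178, 187 and 171 in progenitors and 5438, 6452 and 7154 in neurons, the highest levels of any of the 9. The step from mNPC to mCtx was 35.5-fold (log2 fold change 5.15 ± 0.22, adjusted p = 8.21e-17). The step from mESC to mNPC was 1.94-fold by counts (0.96 ± 0.19, adjusted p = 6.85e-05) and by TPM was -0.28 (adjusted p = 0.31), above the -0.64 of all genes, and 0.35 once rescaled (adjusted p = 0.0676). In cytoplasm it was at 6.84, 12.6 and 12.3 CPM in mESC, 13, 14.1 and 12.9 in progenitors and 178, 168 and 186 in neurons. The first step was not called there (0.34 ± 0.21, adjusted p = 0.143) and the second was 13.3-fold (3.73 ± 0.21, adjusted p = 2.46e-14). Chromatin was 8.73-fold above cytoplasm in mESC, the lowest of the 9, 13.4-fold in mNPC and 35.8-fold in mCtx.

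Sgcz encodes zeta-sarcoglycan, a member of the membrane complex that joins dystrophin to the cell surface in muscle and vascular cells. Its chromatin libraries held 35.6, 36.5 and 37.5 CPM in mESC, 20.2, 20.5 and 17.8 in progenitors and 488, 582 and 695 in neurons. The groups did not overlap, with a low in progenitors and a high in neurons. It was 1.87-fold lower in mNPC than in mESC (log2 fold change -0.9 ± 0.2, adjusted p = 0.000244) and 30.1-fold higher in mCtx than in mNPC (4.91 ± 0.23, adjusted p = 2.55e-16). By TPM the drop from mESC to mNPC was -0.17 and not called (adjusted p = 0.0585), nor was it rescaled (-0.1, adjusted p = 0.22). On the log2(TPM + 0.1) scale it was -0.93. The cytoplasm of mESC held 0.377, 1.01 and 1.03 CPM. That of mNPC held 0.0526, 0.324 and 0.216 CPM, from 1 to 6 reads per library, against 8.38, 8.72 and 11.1 in mCtx (5.53 ± 0.39, adjusted p = 1.46e-12). By TPM, which held almost no Sgcz transcript, that step was 0.20 (adjusted p = 0.0605) and mCtx against mESC cytoplasm was 0.14 (adjusted p = 0.154), and with rescaled TPM they were 0.23 and 0.20, both past the threshold. The TPM of Sgcz was at most 1.79 in any library, and it was listed at 0 in all 3 cytoplasm libraries of mNPC. Splicing itself was not measured. By counts chromatin was 45.6-fold, 96.4-fold and 62.8-fold above cytoplasm in mESC, mNPC and mCtx.

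By counts, nucleoplasm set the neurons apart. Chromatin exceeded nucleoplasm by a median of 3.11 log2 units over the 9 genes in mESC (2.38 to 4.09) and 3.99 in mNPC (2.37 to 5.69), but by 1.38 in mCtx (1.12 to 2.17). Nucleoplasm exceeded cytoplasm by a median of 1.34 in stem cells (0.42 to 2.25), 0.05 in progenitors (-0.28 to 1.47) and 3.42 in neurons (2.47 to 4.81). Over all genes tested these medians were between 0 and 0.16. In mNPC the nucleoplasm and cytoplasm libraries overlapped for 8 of the 9 genes, all but Wwox, whereas in mCtx they overlapped for none, and in mESC for Exoc4 and Dpyd. In the neurons the 3 nucleoplasm libraries held 2268, 2809 and 2222 CPM of Macrod2, 1340, 1582 and 1260 of Magi2 and 242, 299 and 246 of Sgcz, each far above the cytoplasm values given above. In the progenitors they held 98.3, 82.9 and 84.7 CPM of Magi2, within reach of the cytoplasm values. For Immp2l, nucleoplasm held 81.8 ± 23.5 CPM in mESC, 7.83 ± 2.54 in mNPC and 64.2 ± 7.12 in mCtx, beside cytoplasm at 22.9, 6.61 and 4.15. Over the 188 other genes of at least 500 kb, the median excess of nucleoplasm over cytoplasm was 1.26, 0.97 and 2.92 in stem cells, progenitors and neurons, and that of chromatin over nucleoplasm 2.61, 2.68 and 1.3. No difference between the 9 and those genes was tested. By TPM the neurons did not stand apart in chromatin over nucleoplasm, with medians of 1.11, 0.63 and 1.01 in the same order, beside 0.51, 0.37 and 0.6 over all genes. Rescaled, these were 1.03, 0.67 and 1.04, beside 0.49, 0.4 and 0.64. Nucleoplasm over cytoplasm by TPM had medians of -0.12, -0.54 and 0.48, beside 0.02, -0.01 and 0.57 over all genes. Rescaled, these were 0.14, -0.16 and 0.3, beside 0.05, 0.02 and 0.26. On the log2(TPM + 1) scale the neuronal value was thus below that of the typical gene by TPM and little above it once rescaled. That scale understates changes of low genes. With log2(TPM + 0.1), Wwox (1.56), Macrod2 (1.3), Magi2 (1.7), Exoc4 (2.25) and Dpyd (1.6) lay above the all-gene median of 1.18 in neurons. Fhit (0.18), Immp2l (-0.25), Rad51b (0.56) and Sgcz (1.12) lay below it. The mNPC nucleoplasm library numbered 1 stood apart from numbers 2 and 3 (chi-square per gene 55.9 and 37.4, against 20.6). Without it the median log2 ratio of mean CPM in mNPC was 4.24 for chromatin over nucleoplasm (3.99 with it) and -0.05 for nucleoplasm over cytoplasm (0.06 with it), and nucleoplasm and cytoplasm overlapped for 6 genes. This alternative was added after the data were seen.

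The chromatin share of a gene is its chromatin CPM as a percent of the sum of its CPM in the 3 fractions. Libraries with the same number were combined. The fractions count equally, so the share is not a share of molecules per cell. In mESC it ran from 76.4% ± 2.12 (SD, n = 3) for Macrod2 to 93.1% ± 1.01 for Immp2l, beside a median of 31.9% over 13972 protein-coding genes. In mNPC it ran from 71.9% ± 2.72 for Exoc4 to 96.5% ± 0.768 for Fhit, beside 30.3% over 12650 genes. In mCtx it ran from 64.7% ± 2.63 for Exoc4 to 79.8% ± 2.59 for Wwox, beside 30.6% over 12922 genes. For Immp2l the libraries gave 92%, 93.2% and 94% in mESC, 92.6%, 94% and 93.7% in progenitors, and 65.6%, 65.6% and 70.3% in neurons. For Fhit they gave 92.4%, 92.1% and 90.6%, then 95.7%, 96.8% and 97.2%, then 70.3%, 69.7% and 77.6%. In both genes the neuronal share lay below every stem cell and progenitor value. Wwox differed, with 84.6% ± 0.554 in stem cells, 76.8% ± 2.62 in progenitors and 79.8% ± 2.59 in neurons. With library sizes by total counts the range in mCtx was 59.9% to 76.4%, and in mESC 82.4% to 95.1%.

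TPM gave lower shares in mESC and mNPC, and by gene rather than evenly. In mESC the share of Macrod2 was 24.1% ± 3.13 by TPM, against 76.4% by counts, and that of Sgcz 47.1% ± 6.5, against 88.9%. The other 7 genes lay between 65% and 78.2% by TPM, all above the median of all protein-coding genes, 36.2%. In mNPC the TPM share was 32.3% ± 7.75 for Macrod2, 37.8% ± 2.03 for Wwox, 39.9% ± 5.24 for Immp2l and 44.6% ± 5.84 for Rad51b, beside 36% over all protein-coding genes. These 4 genes had count shares of 76.8% to 93.4% in the same libraries. In mCtx the measures lay much closer, with TPM shares of 58.4% (Rad51b) to 76.1% (Dpyd), beside 40.6% over all protein-coding genes. In log2 units, the median excess of chromatin over cytoplasm of the 9 genes was 3.99 by counts and 1.09 by TPM in mESC, 3.75 and 0.08 in progenitors, and 4.93 and 1.49 in neurons. All genes tested had medians of 0.36, 0.06 and 0 by counts and 0.59, 0.30 and 1.23 by TPM, so by TPM the 9 genes were below the typical gene in mNPC and little above it in mCtx. With rescaled TPM the 9 had 1.04, 0.35 and 1.27, beside 0.64, 0.51 and 0.94. TPM fold changes are on the log2(TPM + 1) scale, which understates them for low genes such as Sgcz. Macrod2 shows the split at the level of libraries: in mESC its chromatin held 1.9, 2.82 and 3.35 TPM and its cytoplasm 2.72, 6.04 and 6.53 TPM, while its chromatin counts were 8.73-fold above the cytoplasm.

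**Figure D3:**
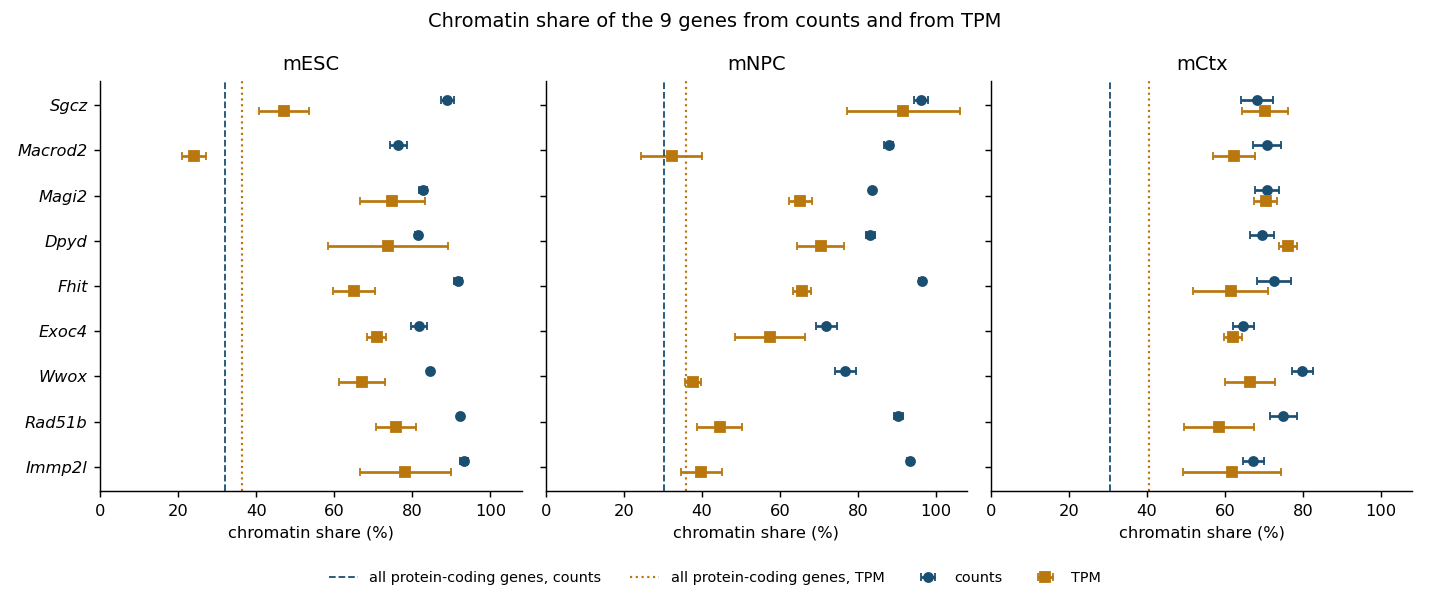
Chromatin share (x axis, percent of the sum over the 3 fractions) of each gene in each cell type, from counts (circles) and from TPM (squares), as mean and SD of 3; lines mark the medians of all protein-coding genes. By counts every gene is at 64.7% or more, while by TPM Macrod2 falls to 24.1% in mESC and 32.3% in mNPC.

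Relatives of the 9 genes were listed as partners of the same family or complex: 36 genes, of which 34 passed the filter on low counts. Their levels in chromatin and cytoplasm were tested. In mESC 16 were higher in chromatin and 15 lower, beside 44.6% and 32.9% of all genes. In mNPC 13 were higher and 16 lower, beside 37.0% and 32.5%, and in mCtx 15 were higher and 13 lower, beside 35.6% and 37.6%. The median log2 fold changes were -0.03, -0.35 and 0.14, near those of all genes (0.36, 0.06 and 0). With total counts only 9 were lower in mESC, and by TPM only 4 were lower in mCtx. Total counts shifted the median of all genes by 0.46 in mESC and -0.56 in mCtx, and the share of higher genes among all calls went from 57.5% to 67.9% and from 48.6% to 35.9%. By TPM the median of all genes in mCtx was 1.23, with 17391 higher and 2815 lower, and with rescaled TPM 9 partners were lower there.

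The partners with the largest excess in chromatin were mostly long genes, and those with the largest excess in cytoplasm short ones. Delta-sarcoglycan, Sgcd (1092.7 kb), was higher in chromatin by 4.77 ± 0.23 log2 units in mESC (26.5 against 0.969 CPM, adjusted p = 6.95e-16) and by 5.42 ± 0.19 in mCtx (1094 against 25.6 CPM, adjusted p = 1.62e-18). Magi1 (607.9 kb), a scaffold like Magi2, was higher by 4.01 ± 0.2 in mESC and 2.9 ± 0.19 in mNPC (adjusted p = 1.03e-15 and 2.07e-13). Exoc6b (451 kb), another exocyst subunit, was higher by 2.51 ± 0.12 in mNPC and 3.5 ± 0.13 in mCtx (adjusted p = 8.05e-16 and 2.46e-18). At the other end Hint1 (4.1 kb), a histidine triad hydrolase like Fhit, was lower in chromatin by 3.15 ± 0.13 log2 units in mESC, 3.48 ± 0.13 in mNPC and 4.35 ± 0.14 in mCtx. Its relative Hint2 (2.2 kb) had -2.16, -1.66 and -2.33 in the same order, and the exocyst subunit Exoc8 (7.4 kb) -1.69 in mNPC. The same list also named Sgce (72.9 kb, 2.93 in mESC), Dmc1, the meiotic recombinase (43.6 kb, 2.66 in mNPC and 3.55 in mCtx, at 2.27 and 4.75 CPM in chromatin), Upp1, uridine phosphorylase (18.1 kb, -2.22 in mESC) and Tymp, thymidine phosphorylase (5.1 kb, -2.76 in mCtx). All of these passed the adjusted threshold of 0.05. Immp1l, the other peptidase subunit (60.9 kb, chosen after its values were seen), was higher in chromatin by 2.14 ± 0.13 in mESC and 0.91 ± 0.13 in mCtx by counts. By TPM it had -0.82 and -0.49 instead, and -0.48 and -0.96 rescaled. Span was not tested as a cause.

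**Figure D4:**
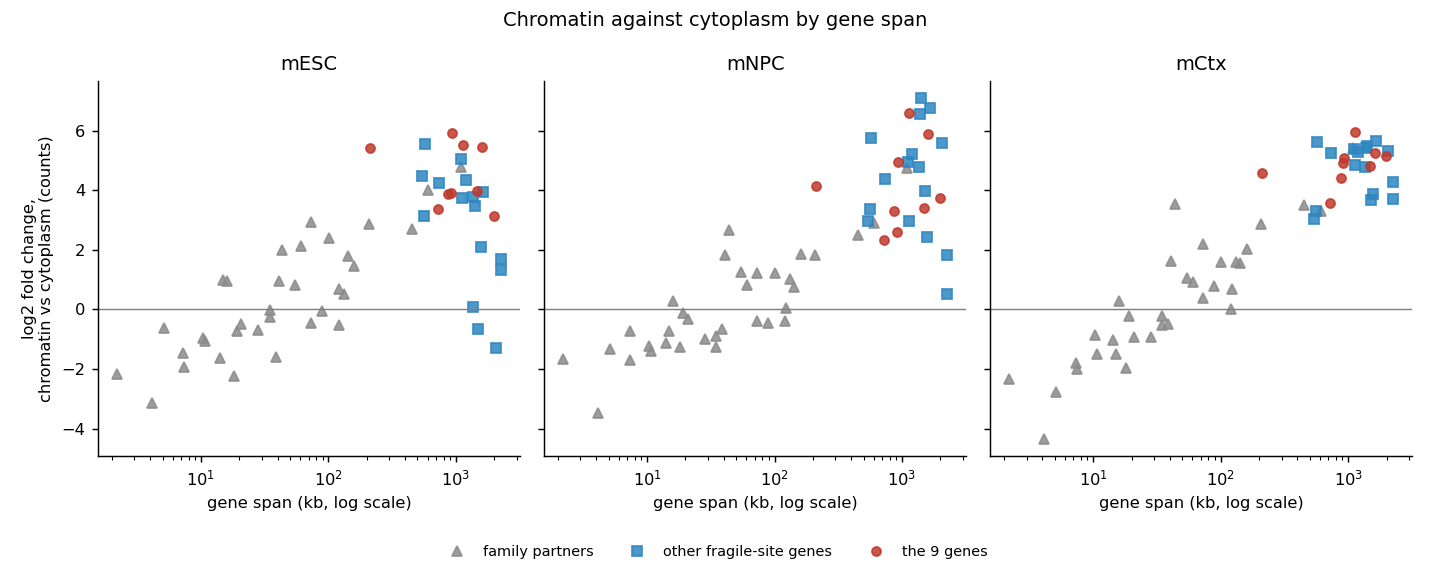
Log2 fold change of chromatin against cytoplasm by counts (y axis) against deposited gene span in kb on a log scale (x axis), for the 9 genes, their family partners and other fragile-site genes. Partners run from Hint1 (4.1 kb) below -3 to Sgcd (1092.7 kb) above 4, and all of the 9 genes lie above 2.

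Other genes of the fragile-site kind were listed as a comparison: 16 were found and tested, with spans of up to 2257.3 kb (Dmd). They were chosen for their length and locus, with earlier results of these data known, so their calls are no independent support for the 9 genes. In mESC 13 were higher in chromatin than in cytoplasm, 2 were lower and Il1rapl1 was not called (0.10 ± 0.29, adjusted p = 0.757). In mNPC 15 were higher and Cntnap2 was not called (0.52 ± 0.43, adjusted p = 0.29), and in mCtx all 16 were higher. The pair that was not called was named after its values were seen. The background shares are those given for the partners. Their medians were 3.61, 4.58 and 5.05 log2 units, beside 3.99, 3.75 and 4.93 for the 9 genes. By TPM they were 0.34, 0.80 and 2.47, beside 0.59, 0.30 and 1.23 over all genes, so the mESC value was below that of the typical gene and the others above it. The same held with rescaled TPM, at 0.4, 1.2 and 2.11 beside 0.64, 0.51 and 0.94. Auts2 (1106 kb) was higher in chromatin by 5.06 ± 0.21 log2 units in mESC (728 against 21.9 CPM, adjusted p = 4.46e-17). Csmd1 (1643 kb) had 6.77 ± 0.29 in mNPC and 5.67 ± 0.27 in mCtx (adjusted p = 7.44e-17 and 4.01e-16), and Il1rapl1 6.57 ± 0.33 in mNPC (adjusted p = 1.26e-15).

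Lrp1b and Pde4d were the genes of this list that were lower in stem cell chromatin. Lrp1b (2058.4 kb), a lipoprotein receptor relative, was lower in mESC chromatin than cytoplasm (3.39 against 8.33 CPM, log2 fold change -1.29 ± 0.23, adjusted p = 1.92e-05), but higher by 5.58 ± 0.24 in mNPC and 5.33 ± 0.23 in mCtx. Pde4d (1503.5 kb), a cAMP phosphodiesterase, was lower in mESC too (289 against 452 CPM, -0.65 ± 0.11, adjusted p = 1.27e-05) and higher by 3.97 ± 0.13 in mNPC. By TPM both had positive values in mESC, 0.39 and 1.31 beside 0.59 over all genes, and 0.32 and 1.5 beside 0.64 once rescaled. With total counts 1 gene of the list was called lower. None of the 9 genes had a count value below 2.34 in any cell type.

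Protein-coding genes lay inside a pair of the long genes, each on the opposite strand, and their counts and TPM are set beside those of their hosts. Lrrn3 (chr12:41451673-41485751, 34.1 kb, minus strand), a leucine-rich repeat membrane protein of neurons, lies within Immp2l. Flrt3 (chr2:140650914-140671469, 20.6 kb, minus strand), a cell adhesion protein, lies within Macrod2. In mESC chromatin, where Immp2l held 1399 ± 167 CPM, Lrrn3 had 2, 1 and 0 reads in the 3 libraries, while even coverage of the host would put 51.2 CPM on its span. Its TPM there was 3.13 ± 0.407, against 0.07 in nucleoplasm and 0.03 in cytoplasm. In mCtx Lrrn3 held 105 CPM in chromatin, 189 in nucleoplasm and 115 in cytoplasm, where Immp2l held 140, 64.2 and 4.15, so host and nested gene had different orders over the fractions. Flrt3 in mCtx held 28.3 CPM in chromatin, 53.5 in nucleoplasm and 40.1 in cytoplasm by counts. By TPM it was highest in chromatin, at 28.3, with 15 in nucleoplasm and 3.48 in cytoplasm, the order of its host Macrod2 at 110, 47 and 19. The remaining 19 genes opposite to the 9 spans, not counting an unnamed second model over Flrt3, never had more than 9 reads in a library. At both loci the counts of the nested gene had another order over the fractions than its host in mNPC and mCtx. Over mESC, mNPC and mCtx, chromatin counts of Flrt3 rose in the order of Macrod2 (6.68, 21.9 and 28.3 against 92.2, 179 and 6348 CPM). Those of Lrrn3 ran opposite to Immp2l (0.0499, 29.8 and 105 against 1399, 204 and 140 CPM). By TPM, Lrrn3 was raised in mESC chromatin over the other mESC fractions, and Flrt3 was highest in mCtx chromatin. The hosts were highest in these groups, Immp2l in mESC chromatin and Macrod2 in mCtx chromatin. Lrrn3 TPM was higher still in mCtx, at 8.75, 32.4 and 10.1 in chromatin, nucleoplasm and cytoplasm, where Immp2l held 2.64, 0.647 and 0.763. The cause was not tested.

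**Figure D5:**
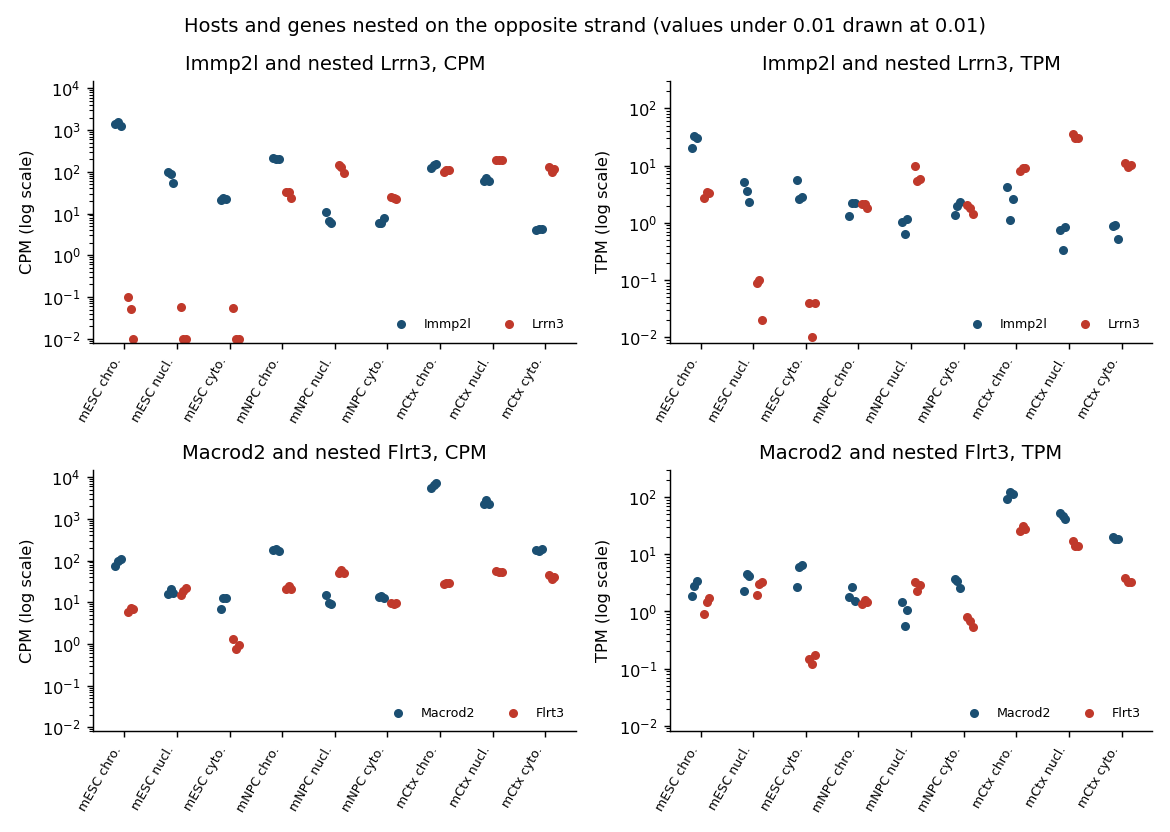
Levels on log axes of the hosts Immp2l and Macrod2 (blue) and of the genes nested in them on the opposite strand, Lrrn3 and Flrt3 (red), as CPM (left) and TPM (right) in each library of the 9 groups (x axis). In mESC chromatin Lrrn3 has almost no counts but 3.13 TPM, and Flrt3 in mCtx is highest in nucleoplasm by counts but in chromatin by TPM.

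For each gene the most similar genes were taken as those with the highest Pearson r of log2(CPM + 1) over the 27 libraries, among 10921 genes of mean 10 CPM or more. These r describe levels that share libraries, fractions and cell types. Magi2 was most like the unnamed gene ENSMUSG00000096382 (810 kb, r = 0.996) and Rgs7 (431.4 kb, 0.993), and Macrod2 most like Stxbp5l and Zfhx4 (r = 0.99 for both). Sgcz was most like B230216N24Rik and Dlgap2 (0.986 for both), Dpyd like Ispd (0.983) and Pard3b (0.98). Among the genes high in mESC, Immp2l was most like Carnmt1 (0.986) and Diaph2 (0.983), Rad51b like Cenpp (0.989) and Dph6 (0.979), and Wwox like Slc25a26 (0.986) and Cwc27 (0.973). Exoc4 was most like Enox2 (0.989) and Fars2 (0.982), and Fhit like Mettl25 (0.979) and Fndc3a (0.978). The spans of these 18 genes ran from 26.6 to 1003.5 kb. The 9 genes themselves were left out of this search.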

How the data were processed

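Total RNA of 3 fractions from 3 mouse cell types was sequenced, with 3 libraries in each of 9 groups. STAR, featureCounts and kallisto, with no versions or roles, and the mm10 build are named in the submitters' processing notes. The authors deposited read counts as whole numbers. The deposited chromatin columns were given the unit expected count in the analysis notes because a format check takes their abbreviation for a chromosome, and their values are whole too. The deposited gene length equalled the gene span for all 37332 genes, so these counts include introns. Flrt3 and an unnamed gene model over it had equal counts in all 27 libraries, so reads in overlapping models of 1 strand were counted for each. The authors also deposited TPM for 53379 genes. The treatment of reads with several matches is not given in the sources used here. GENCODE vM21 named 35533 genes by identifier.

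All libraries were fitted in edgeR 4.0.16 (R 4.3.3) with 9 group means, trimmed-mean scaling and the default low-count filter (18249 genes, 18 residual degrees of freedom). The quasi-likelihood test was adjusted by Benjamini-Hochberg at 0.05 over all genes. CPM use the effective library sizes. TPM were tested with limma 3.58.1 on log2(TPM + 1) over 25206 genes above 1 TPM in at least 3 libraries. Replicate numbers were checked for pairing: deviations of same-numbered libraries correlated at 0.23 to 0.61 in the fraction comparisons of mESC, and at -0.04 to 0.15 elsewhere. On that evidence alone the mESC fractions look paired. The reported fits had no replicate block, so the mESC tests of chromatin against cytoplasm left this pairing out. The block was run as an alternative. The tests were tested on simulated data. The members, lists and tests were chosen with earlier results of these data known. Named were all 9 genes, the 3 largest called changes in each direction per list at a mean of 1 CPM or more, nested protein-coding genes and the 2 most similar genes. Some genes that this rule picks are not reported here. Alternatives were other scalings (TPM rescaled by median ratios among them), filters, tools and units, the replicate block, fits of the compared groups only and each library left out. P-values measure the spread between replicates that the labels call biological. Figures were drawn with matplotlib 3.10.9.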

Additional observations from a re-analysis of the deposited data

Results flagged for a closer look

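Wwox moved in opposite directions in the fractions between progenitors and neurons. In chromatin all 3 mCtx libraries were above all 3 mNPC libraries (log2 fold change 1.36), and in cytoplasm all 3 were below (-0.96). Each comparison passed its own test, and the difference between them was not tested. Groups held 3 libraries each, too few for a test of single outlying libraries.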

How the results depend on the processing

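Scaling, unit and single libraries limited many changes, some large ones in cytoplasm included (Sgcz and Immp2l, given above), while changes of Magi2, Macrod2, Sgcz, Immp2l and Rad51b between mESC and mCtx chromatin kept their direction under each alternative tried. By TPM (pseudocount 1, pseudocount 0.1, and pseudocount 1 without a filter, in that order) 3 results called by counts took the other sign: Macrod2 in mNPC against mESC chromatin (-0.28, -0.39, -0.28), Immp2l in mCtx against mNPC chromatin (0.25, 0.31, 0.25) and Exoc4 in mNPC against mESC cytoplasm (-0.43, -0.47, -0.43). With rescaled TPM these kept the sign of the counts (0.35, -0.35 and 0.34), and unscaled TPM shifted the median of all genes in the chromatin comparisons (-0.64 and 0.99). Among results not called by counts above, the TPM sign (pseudocount 1) also differed in chromatin for Dpyd in mCtx against mNPC (0.26). It differed for Fhit in mNPC against mESC chromatin (-0.21) and cytoplasm (0.05), and for Macrod2 in mNPC against mESC cytoplasm (-0.47). Wwox in mNPC against mESC cytoplasm was 0.05 with rescaled TPM, and Exoc4 in mCtx against mNPC chromatin was -0.45 with total counts. For both the cause was not tested. Members lower in mCtx than in mNPC chromatin numbered 5 with total counts and 1 by TPM at each of these 3 settings (17530 of all genes were then higher and 1581 lower), against 3, which was also the count with rescaled TPM. Members lower in mNPC than in mESC cytoplasm numbered 2 by TPM, with and without the filter, and 0 with rescaled TPM, against 4. Members higher in mCtx than in mESC cytoplasm numbered 2 by TPM, with and without the filter, against 4, and lower ones 3 with rescaled TPM, against 5. Family partners lower in chromatin numbered 9 with total counts in mESC, 10 with rescaled TPM in mNPC and 4 by TPM (3 settings) in mCtx, against 15, 16 and 13. Other fragile-site genes lower in mESC chromatin numbered 1 with total counts and under each of 4 TPM settings, against 2. Leaving out single libraries gave 3 to 4 members higher in mNPC than in mESC chromatin, 2 to 3 in cytoplasm, and 3 to 4 higher in mCtx than in mESC cytoplasm.

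With the replicate number as a block, 4 members were higher and 5 lower in mNPC than in mESC chromatin, since Fhit passed (0.46, adjusted p = 0.0289), and Dpyd passed as lower in mCtx than in mNPC chromatin (-0.68, adjusted p = 0.0348). In the fraction comparison of mESC, which looks paired but was reported without a block, the block left 16 partners higher and 15 lower. It left 13 other fragile-site genes higher and 2 lower. Depth limits Sgcz in mNPC cytoplasm and Dpyd in mESC cytoplasm, each with a few reads per library.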

Other observations

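In mESC the libraries numbered 1 differed from the others in opposite ways for different genes. Dpyd was highest in library 1 in each fraction (21.2 CPM against 8.72 and 5.15 in chromatin, 3.7 against 1.57 and 0.496 in nucleoplasm, 1.24 against 0.357 and 0.727 in cytoplasm). Fhit was highest there in chromatin (345 against 231 and 186) and nucleoplasm (22.8 against 14.8 and 12.4) but not in cytoplasm (5.39 against 4.94 and 6.96). Macrod2 was lowest in library 1 in each fraction (72.4 against 97.5 and 107, 15.9 against 20.7 and 16.5, and 6.84 against 12.6 and 12.3). Magi2 was instead lowest in library 3 in each fraction, with 25.1 CPM in chromatin against 44.6 and 48.2. The chromatin share of Dpyd stayed at 81.1%, 81.9% and 80.8% over the same libraries.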
